A study of Mus musculus with 28 samples.

Results

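The expression of 5 genes by which mast cells are known was followed through whole mouse brains. They are the protease genes Mcpt4, Cpa3, Cma1 and Tpsb2, and Hdc, which encodes the enzyme that makes histamine. Probes were assigned to a gene by the transcript accession that the array files give, and the 5 genes of 20660 named genes had 6 of the 55681 probes. Where a gene had more than 1 probe, the one with the highest mean was used. The animals were 3 male C57BL/6J mice, aged 3 weeks and with no genetic or drug treatment named in the labels, and each brain was cut in 1 plane, which gave 12 coronal fractions from mouse 1, 6 horizontal fractions from mouse 2 and 10 sagittal fractions from mouse 3. Total RNA of each fraction was hybridised to 1 array. No position has a replicate, and mouse and plane cannot be told apart. The labels give 100 sections of 5 micron per fraction, the study's text gives another thickness, and so positions are fraction numbers. The label of the last coronal fraction names a following one with it.

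Mast cells are immune cells of the myeloid line that store histamine and proteases in granules and release them when antigen binds the IgE held on their surface by the high affinity IgE receptor. The granules hold chymases (Mcpt4 and Cma1 in connective tissue mast cells), tryptases (Tpsb2) and carboxypeptidase A3 (Cpa3), bound to heparin. In the rodent brain mast cells are few and lie in the meninges, along vessels and in the thalamus and hippocampus. Histamine has a second source in brain, the neurons of the tuberomammillary nucleus in the posterior hypothalamus, which also use Hdc.

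A level below is the background-subtracted signal on a log2 scale, relative to the 75th percentile of its array. Levels of different probes are not comparable. A value called well above background carries that flag of the scanner software, and the error after ± is the error that this software gives for the spot, converted to log2, so it covers the spot and not the animal. The 5 genes were chosen by their known roles and with these levels known, so levels and plane differences are given as a description, without a test. In bulk tissue, fewer cells of a type and less RNA per cell cannot be told apart.

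The 5 genes did not share 1 pattern. Tpsb2 was well above background in 28 of 28 fractions by its brighter probe and in 0 by its second probe, Hdc in 27, Mcpt4 in 13, Cpa3 in 2 and Cma1 in 0. Mcpt4 was highest of its series in coronal fraction 4 and in horizontal fraction 2, the 2 fractions in which Cpa3 was well above background. Tpsb2 was high in coronal fraction 3, in all 6 horizontal fractions and in sagittal fractions 1, 2 and 9. Hdc was highest in coronal fraction 6, horizontal fraction 6 and sagittal fractions 6 and 5.

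**Figure D1:**
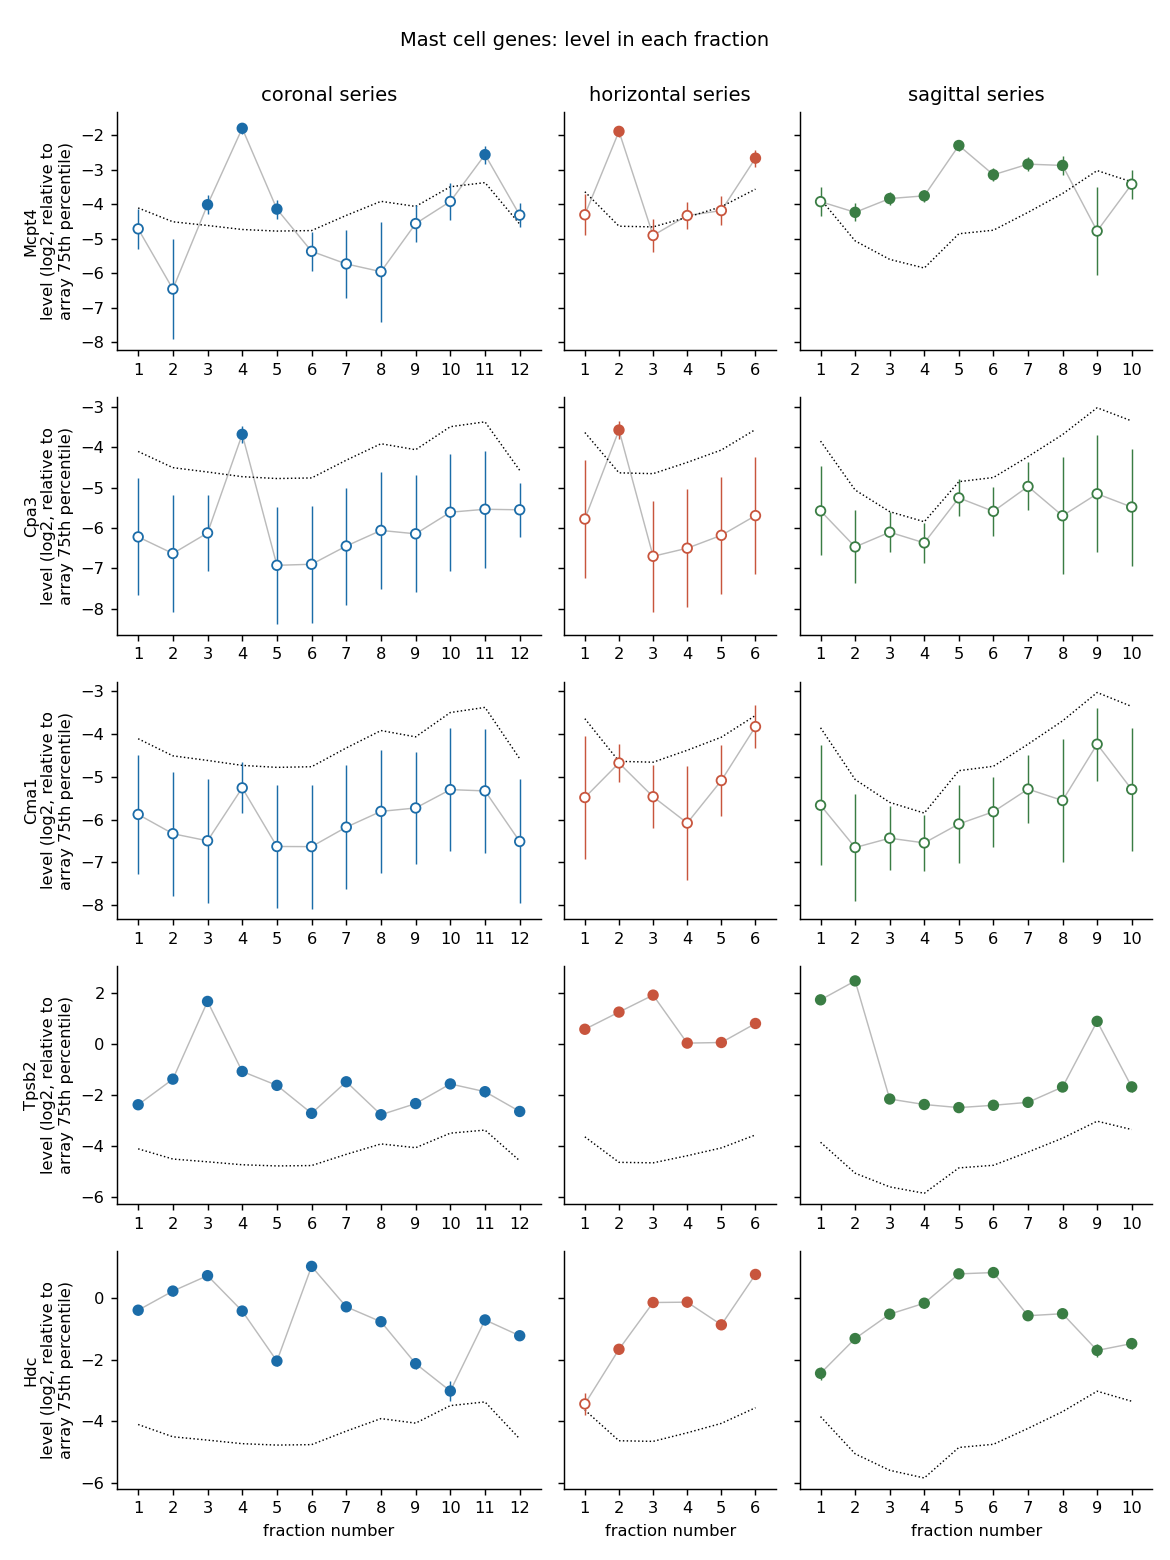
Level of the 5 mast cell genes in each fraction (log2, relative to the 75th percentile of the array) against fraction number, 1 row per gene and 1 column per plane. Filled points were well above background and open points were not, bars are the spot error from the scanner software, and the dotted line is the lowest level well above background on that array. Cpa3 has 2 filled points, in coronal fraction 4 and horizontal fraction 2, where Mcpt4 is also highest.

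The chymase gene Mcpt4 (Gene ID 17227, chromosome 14 from 56059744 to 56062310, GRCm38.p6) and the carboxypeptidase gene Cpa3 (Gene ID 12873, chromosome 3 from 20215616 to 20242209) are shown by the sequence around their starts, because the highest Mcpt4 levels lay in the 2 fractions in which Cpa3 was well above background. Both genes are read from the reverse strand, and the RefSeq windows of GRCm38.p6 run from 250 bases before the start to 50 bases after it, at chr3:20242132-20242431 for Cpa3 and chr14:56062261-56062560 for Mcpt4. Capitals mark matches to AGATAA or TGATAA, the core letters of sites for GATA factors such as GATA2, a transcription factor of mast cells.
Cpa3: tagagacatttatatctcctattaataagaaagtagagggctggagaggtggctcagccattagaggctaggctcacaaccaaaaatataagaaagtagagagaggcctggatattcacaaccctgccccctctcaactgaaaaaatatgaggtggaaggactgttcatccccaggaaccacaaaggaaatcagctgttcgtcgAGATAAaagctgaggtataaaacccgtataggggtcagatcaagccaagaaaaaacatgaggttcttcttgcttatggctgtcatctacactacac
Mcpt4: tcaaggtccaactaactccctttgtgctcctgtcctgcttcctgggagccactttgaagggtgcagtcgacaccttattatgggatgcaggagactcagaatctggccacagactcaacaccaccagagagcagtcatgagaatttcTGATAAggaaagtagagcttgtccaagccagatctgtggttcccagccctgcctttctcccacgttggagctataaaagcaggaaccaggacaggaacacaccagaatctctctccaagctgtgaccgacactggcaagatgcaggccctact
AGATAA begins 46 bases before the start that the Cpa3 window is drawn on, and TGATAA begins 103 bases before that of the Mcpt4 window. Both strands were searched, and the 2 motifs do not overlap in either window. Of 32851 such windows of 300 bases, 18.6% hold one of these motifs. The Cma1 and Hdc windows (chr14:55944626-55944925 and chr2:126618629-126618928) hold none. The Cpa3 window belongs to a start that lies 28 bases inside the annotated interval of the gene, and the Hdc window to one that lies 5347 bases inside it. None of the 4 windows holds the E-box letters CATGTG or CACGTG, which 20.4% of all windows hold. The Tpsb2 window was not used here. A match of letters is a description of the sequence.

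Mcpt4 was well above background in 4 of 12 coronal fractions. Its coronal levels ran from -6.46 in fraction 2 over a median of -4.44 to -1.80 ± 0.15 in fraction 4. The other detected coronal fractions were fraction 11 at -2.57 ± 0.26, fraction 3 at -4.01 ± 0.28 and fraction 5 at -4.14 ± 0.28. So fraction 4 stood above both of its neighbours, 4.63-fold above fraction 3 and 5.06-fold above fraction 5, and a second, lower rise lay in fraction 11. Against fraction 2, where Mcpt4 was not well above background, fraction 4 was at least 6.52-fold higher. A fold called at least is taken against the higher of the gene's own level and the lowest level well above background on that array.

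In the horizontal series Mcpt4 was -4.31, -1.89, -4.90, -4.33, -4.18 and -2.67 in fractions 1 to 6, and was well above background in fractions 2 and 6 alone. Fraction 2 was at least 3.36-fold above fraction 1 and at least 6.79-fold above fraction 3. It was 1.71-fold above fraction 6. In the sagittal series Mcpt4 was well above background in the 7 fractions from 2 to 8. The levels ran from -4.78 in fraction 9, not well above background, over a median of -3.59 to -2.30 ± 0.16 in fraction 5. Fractions 7, 8 and 6 followed with -2.84 ± 0.20, -2.88 ± 0.27 and -3.15 ± 0.19. Fraction 5 was 2.75-fold above fraction 4, 1.80-fold above fraction 6 and at least 1.65-fold above fraction 9. The lowest detectable level was -3.03 in fraction 9 and -3.35 in fraction 10, so a fall at that end is mostly not shown. With normexp background correction the highest sagittal level was in fraction 1, where Mcpt4 was not well above background. Ordered over all 13 fractions well above background, coronal fraction 4 and horizontal fraction 2 came at the top and differed by 0.09 log2, less than their errors, and 11 of the 12 neighbours in the order lay within 2 errors of each other.

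Cpa3, which trims the ends of peptides in the granule, was close to background. Its 2 fractions well above background had -3.68 ± 0.21 (coronal fraction 4) and -3.58 ± 0.21 (horizontal fraction 2). The other 11 coronal levels lay between -6.92 and -5.54 and the other 5 horizontal levels between -6.70 and -5.69. In the sagittal series no fraction was well above background, and the levels ran from -6.47 over a median of -5.58 to -4.97 in fraction 7. On 6 arrays (coronal fractions 10 and 11, horizontal fractions 1 and 6 and sagittal fractions 9 and 10) the lowest level well above background lay between -3.64 and -3.03, above one or both of these Cpa3 levels, so a lower level there is not shown. Coronal fraction 4 was at least 1.91-fold above fraction 3 and at least 2.13-fold above fraction 5, and horizontal fraction 2 was at least 2.11-fold above fraction 3 and at least 1.04-fold above fraction 1. Against horizontal fraction 6 and coronal fraction 11, where the lowest detectable level was higher, no bound above 1 can be given. With normexp background correction the highest horizontal and coronal Cpa3 levels were in these 2 fractions, in which Cpa3 was not well above background.

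Over the 28 fractions r between Mcpt4 and Cpa3 was 0.73 (Spearman's rho 0.67), and 0.72 after the mean of each series was subtracted. The points share arrays and depth, and both genes were well above background in 2 of them. Without coronal fraction 4 and horizontal fraction 2, r was 0.61, over fractions in which Cpa3 was not well above background. For scale, 912 of 32364 probes tested (2.82%) were highest in coronal fraction 4, 4514 (13.9%) in horizontal fraction 2, and 85 (0.263%) in both. Mcpt4 is among these 85 by construction, since the 2 fractions were picked as its highest ones, so the share supports nothing. Cpa3 was not in the tested set. The arrays of the 2 fractions were on different slides and at the same place on them, position 2. Of the other 2 arrays at that place, coronal fraction 12 had Mcpt4 at -4.32 and sagittal fraction 2 at -4.24, and Cpa3 was well above background on neither.

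**Figure D2:**
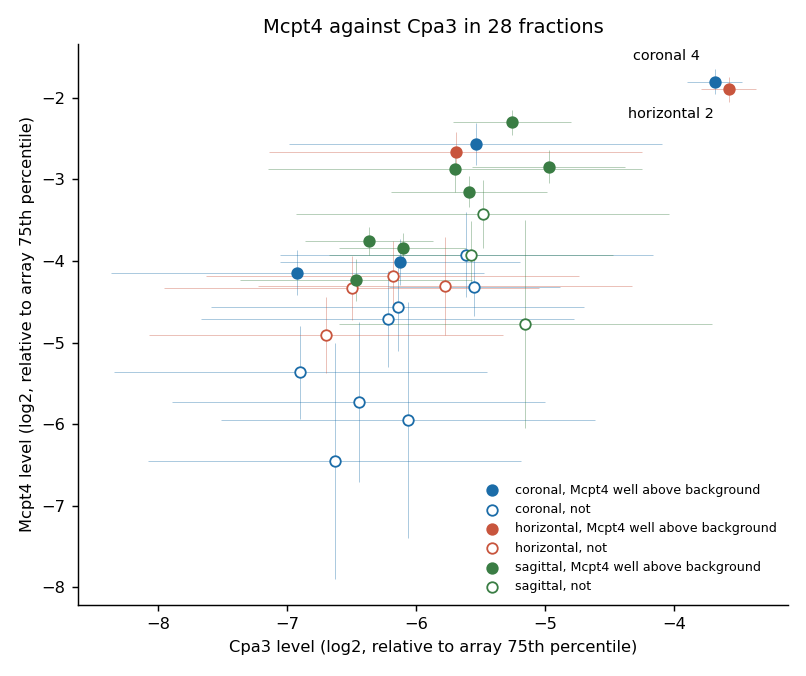
Mcpt4 level against Cpa3 level (log2, relative to the 75th percentile of the array) in the 28 fractions, coloured by plane. Filled points had Mcpt4 well above background, and bars are spot errors. Coronal fraction 4 and horizontal fraction 2 lie together at the upper right, at Cpa3 levels of -3.68 and -3.58.

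Apart from the members, the named gene closest to Mcpt4 was H2-Eb1, an MHC class II chain of antigen-presenting cells (r 0.63, 0.58 within series), followed by Ltf (0.54), the lactoferrin of neutrophil granules, Flt3l (0.54), a cytokine of dendritic cell growth, Prdm6 (0.54) and Tfap2d (0.54). Of the tested probes, 0 reached an r of 0.85 with Mcpt4. H2-Eb1 and Flt3l were well above background in all 28 fractions, Prdm6 in 20, Tfap2d in 13 and Ltf in 7. Mcpt4 itself was so in 13, so many points behind these r are values at background on shared arrays. H2-Eb1 was highest in coronal fraction 10, horizontal fraction 6 and sagittal fraction 1, none of them the highest Mcpt4 fraction of its series. Prdm6 and Tfap2d were highest of the coronal series in fraction 4, as Mcpt4 was, at -2.37 and -2.44, against second highest levels of -2.99 and -2.87. Flt3l was also highest in coronal fraction 4 at 0.50, against -1.29 in the second highest, fraction 1, and was -1.38 at its highest in the horizontal series, in fraction 6. Of the neutrophil and bone marrow list, S100a9, a calcium-binding protein of neutrophils, was highest in coronal fraction 10, horizontal fraction 6 and sagittal fraction 7, and the mean profile of the 9 tested genes of that list had an r of 0.47 with Mcpt4. In coronal fraction 4 that mean lay at -0.80 log2 relative to its own mean, and in horizontal fraction 2 at 0.55.

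Lists of other cell types were also read in the 2 fractions where Mcpt4 and Cpa3 were highest. Relative to its mean over all fractions, the meningeal fibroblast list (13 genes, all well above background in every fraction) stood at 0.10 log2 in coronal fraction 4 and -0.15 in horizontal fraction 2. The vessel cell list (9 genes) stood at 0.03 and 0.08, the latter its horizontal maximum, the border macrophage list (6 tested genes) at -0.33 and 0.20, the thalamus list (8 genes) at 0.01 and -0.30, and the red blood cell list (7 tested genes) at -0.68 and 2.10. The skeletal muscle list (4 tested genes) stood at 0.02 and 1.16, its horizontal maximum. No list had its maximum in both fractions. In sagittal fraction 5, the highest for Mcpt4, the thalamus and hypothalamus lists stood at their sagittal maxima of 1.30 and 2.39. The red blood cell list stood at -1.14 there, and the meningeal fibroblast and vessel cell lists were highest in sagittal fractions 1 and 8. Over all fractions the thalamus list had an r of 0.06 with Mcpt4 and the hypothalamus list 0.09. Of the basophil list, 0 of 5 genes could be tested and Mcpt8, Cd200r3 and Il4 were never well above background. The part of these cells in the Mcpt4 and Cpa3 peaks was not tested.

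Cma1, the second chymase (Gene ID 17228, chromosome 14 from 55941451 to 55944675), was well above background in 0 of 28 fractions. Its coronal levels ran from -6.63 over -6.03 to -5.26 in fraction 4, its horizontal levels were -5.48, -4.67, -5.46, -6.08, -5.08 and -3.82, and its sagittal levels ran from -6.65 over -5.74 to -4.24 in fraction 9. Values at this level have no measured order. The 2 highest, horizontal fraction 6 and sagittal fraction 9, are the arrays on which faint probes in general were brightest. Of 10928 probes never well above background, 69.1% were highest of the horizontal series in fraction 6 and 75.8% were highest of the sagittal series in fraction 9. Horizontal fraction 2 had -4.67 ± 0.44 against a lowest detectable level of -4.64, and r of Cma1 was 0.57 with Cpa3 and 0.40 with Mcpt4 over 28 fractions that share arrays and background. Mcpt4, Cma1 and their neighbours are close relatives, as are Tpsb2 and its sister tryptase gene Tpsab1, and cross-hybridisation between them was not tested.

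Tpsb2 (Gene ID 17229, chromosome 17 from 25366308 to 25368096) is a tryptase that cuts proteins as a heparin-bound tetramer. It had the widest range of levels among the members. The lowest values of the other members were not well above background, so this rank is not a measured one. By the brighter Tpsb2 probe the coronal levels ran from -2.77 over a median of -1.75 to 1.66 ± 0.14 in fraction 3. The next highest, fraction 4, had -1.08 ± 0.15. The horizontal levels were 0.57, 1.24, 1.90, 0.03, 0.05 and 0.79 in fractions 1 to 6. The sagittal levels were 1.72, 2.46, -2.16, -2.37, -2.50, -2.40, -2.29, -1.69, 0.88 and -1.69 in fractions 1 to 10. The values fell into 2 sets. In 10 fractions the level was between 0.03 and 2.46, in the other 18 it was between -2.77 and -1.08, and between them lay a gap of 1.11 log2. Coronal fraction 3 was 6.68-fold above fraction 4 and 8.22-fold above fraction 2, and sagittal fraction 2 was 24.6-fold above fraction 3, its neighbour on the same slide. In the order over all fractions, 23 of 27 neighbours lay within 2 errors of each other.

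The second Tpsb2 probe, for the same transcript NM_010781, was not well above background in any fraction. Its coronal levels ran from -6.65 to -5.00 in fraction 3, its horizontal levels from -5.24 to -3.66 in fraction 6, and its sagittal levels from -6.80 to -2.82 in fraction 9. Over the 28 fractions r between both probes was 0.65, with the second at background. The brighter probe had an r of 0.05 with Mcpt4, 0.07 with Cpa3 and 0.31 with Cma1. The second probe had 0.21, 0.38 and 0.76 in the same order, and neither it nor Cma1 was well above background in any fraction. In coronal fraction 4 and horizontal fraction 2, where Mcpt4 was highest, the brighter probe had -1.08 and 1.24, second to coronal fraction 3 and to horizontal fraction 3.

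The genes closest to Tpsb2 were 4921531P14Rik (r 0.97), Defb45 (0.97), a beta-defensin, H2-Eb2 (0.97), an MHC class II chain, Ago2 (0.97), an argonaute of RNA silencing, and Fscn3 (0.95), an actin-bundling protein of testis. Tpsb2 had 58 tested probes with r over 0.85, against 1 for Hdc and 0 for Mcpt4. Each of the 5 genes had all 10 of its values in the high Tpsb2 fractions above all 18 of its values in the others. Defb45, for example, lay between -3.27 and -0.90 in the first and between -8.04 and -4.72 in the second, and Ago2 between 0.47 and 1.98 and between -0.38 and 0.31. Defb45 and H2-Eb2 were well above background in the 10 high Tpsb2 fractions alone, so their lower ranges are not measured ones. 4921531P14Rik was so in 16 fractions, Fscn3 in 18 and Ago2 in all 28. None of the 5 is a mast cell gene by the lists used here. What these probes share was not tested, and the sequences of the probes were not analysed here.

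**Figure D3:**
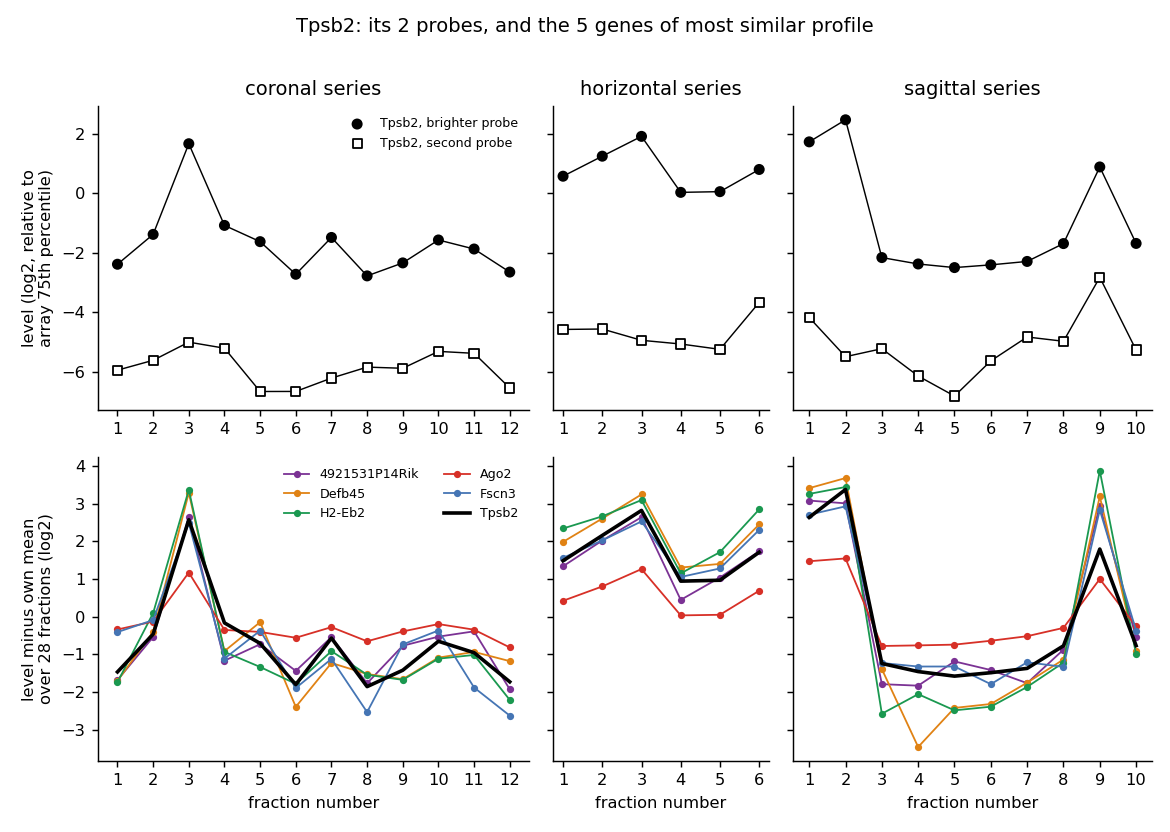
Upper row, level of both Tpsb2 probes by fraction (log2, relative to the 75th percentile of the array), filled where well above background. Lower row, levels of Tpsb2 and of the 5 genes of most similar profile, each minus its own mean over the 28 fractions (log2). The second probe is open throughout, and the 6 lower curves rise together in coronal fraction 3, the horizontal series and sagittal fractions 1, 2 and 9.

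Hdc (Gene ID 15186, chromosome 2 from 126593659 to 126624025) was well above background in every fraction but horizontal fraction 1. Its coronal levels ran from -3.02 in fraction 10 over a median of -0.57 to 1.03 ± 0.14 in fraction 6, with 0.73 ± 0.14 in fraction 3. Between these lay fraction 5 at -2.05 ± 0.16, and fraction 6 was 8.43-fold above fraction 5 and 16.6-fold above fraction 10. A lower rise lay in fraction 11 at -0.71 ± 0.16, against -3.02 ± 0.32 in fraction 10 and -1.22 ± 0.15 in fraction 12. The horizontal levels were -3.44, -1.67, -0.15, -0.13, -0.87 and 0.77, and fraction 6 was at least 18.5-fold above fraction 1 and 3.11-fold above fraction 5. The sagittal levels rose from -2.45 in fraction 1 to 0.79 and 0.83 in fractions 5 and 6 and came back to -1.48 in fraction 10. Fractions 5 and 6 differed by 0.04 log2, less than their errors, and fraction 6 was 9.67-fold above fraction 1 and 2.64-fold above fraction 7. Hdc was thus highest at the end of the horizontal series (in fraction 4 when the array median replaced the 75th percentile) and in the middle of the sagittal one. Over all fractions, 25 of 26 neighbours in the order lay within 2 errors of each other. For scale, 9875 of 32364 probes tested (30.5%) were highest of the horizontal series in fraction 6, so a maximum there is common. In coronal fraction 6 the share was 5.16% and in sagittal fraction 6 it was 5.49%.

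The hypothalamus list stands for the region of the histamine neurons and not for these neurons themselves. It was highest in coronal fraction 7, horizontal fraction 6 and sagittal fraction 5, and its mean profile over 10 tested genes had an r of 0.35 with Hdc. Hcrt, Pmch, Oxt, Avp, Agrp and Ghrh were highest of the coronal series in fraction 7. Nkx2-1 was highest in fraction 8, Crh in 2, Pomc in 11 and Trh in 12. In coronal fraction 3, where Hdc was second highest, the list mean was at its coronal minimum of -1.97 log2. The thalamus list (8 genes) had an r of 0.76 with Hdc and its coronal maximum in fraction 6, and the choroid plexus list (10 genes) had an r of 0.72 and its coronal maximum in fraction 3. The microglia list (7 genes) ran the other way, with -0.69. These are correlations over 28 fractions that share arrays and neighbouring positions. The single genes closest to Hdc were Cfap126 (r 0.86, 0.86 within series), Dydc2 (0.85), Odf3b (0.84), Dnah6 (0.83) and Traf6 (0.82). Cfap126 and Dnah6 encode parts of motile cilia, such as those of ependyma. Cfap126 was highest in coronal fraction 3 (2.08), horizontal fraction 4 and sagittal fraction 5, and Dnah6 in the same 3 fractions, with coronal fraction 6 second for Dnah6. With the mast cell proteases Hdc had an r of 0.03 with Mcpt4, -0.17 with Cpa3 and -0.20 with Tpsb2.

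**Figure D4:**
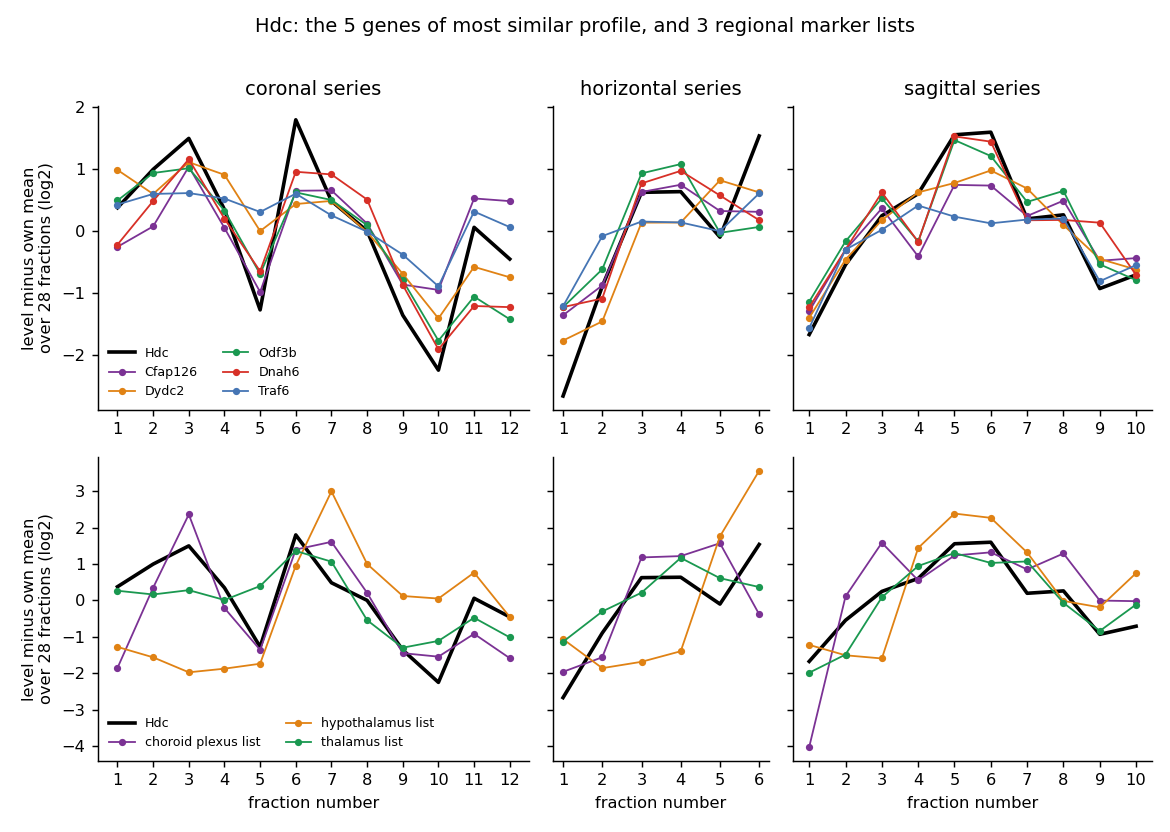
Upper row, level of Hdc and of the 5 genes of most similar profile by fraction, each minus its own mean over the 28 fractions (log2). Lower row, Hdc with the mean profiles of the choroid plexus, hypothalamus and thalamus lists on the same scale. Hdc is highest of the coronal series in fractions 6 and 3, while the hypothalamus list is at its coronal minimum of -1.97 in fraction 3.

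For the mean profile of the 4 protease genes, the closest named genes were 1700012P22Rik (r 0.74), Slurp1 (0.72), Olfr780 (0.71), Calhm4 (0.71) and Ces5a (0.70). This mean joins profiles that differ from each other, and 1700012P22Rik was well above background in 3 of 28 fractions.

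Differences between the planes were set out for the 3 members that passed the filter on low values. Mean Tpsb2 was 0.76 ± 0.72 (SD, n = 6) in the horizontal fractions, -1.69 ± 1.20 (SD, n = 12) in the coronal and -1.004 ± 1.91 (SD, n = 10) in the sagittal. Horizontal fractions thus had 2.45 log2 more than coronal ones (5.46-fold), and all but coronal fraction 3 lay below the lowest horizontal value. The difference was 1.84 (3.59-fold) with normexp background correction and 1.81 (3.51-fold) as the mean of both probes. The second probe was not well above background in any fraction, so the latter is not a measured size. On the slide that held both planes, with 2 coronal and 6 horizontal arrays, the difference by the brighter probe was 2.65. The 2 coronal arrays there were fractions 1 and 2, at 1 end of the series, so position and plane cannot be told apart on that slide. Mean Mcpt4 was -3.71 ± 1.16 (SD, n = 6), -4.46 ± 1.35 (SD, n = 12) and -3.51 ± 0.74 (SD, n = 10) in the same order, differences within the spread of the fractions and with many values at background. Horizontal minus coronal was 0.75 log2 over all arrays and 1.87 on the slide that held both. Neither coronal value on that slide was well above background, so 1.87 is not a measured size. With the array median this difference was 0.33, with quantile normalization 0.30 and with normexp 0.31. Sagittal minus coronal was 0.95 log2 over all arrays, 0.21 on the slide that held both and 0.39 with normexp. That slide held coronal fractions 11 and 12, the other end of the series, and sagittal fractions 5 to 10. Mean Hdc was -0.92 ± 1.48 (SD, n = 6), -0.75 ± 1.20 (SD, n = 12) and -0.71 ± 1.05 (SD, n = 10), and the ranges of the 3 planes overlapped. For Hdc, horizontal minus coronal was -0.16 log2 over all arrays and -0.83 on the shared slide, and sagittal minus coronal was 0.04 and 0.53. Without horizontal fraction 6 the first difference was -0.50. The second was 0.23 without sagittal fraction 1 and turned to -0.14 with the array median.

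Over all 32364 tested probes, limma called 3.47% for horizontal minus coronal, 0.139% for sagittal minus coronal and 0.0154% for sagittal minus horizontal. It called a trend for 33.7% along the coronal series, 15.8% along the horizontal and 14.7% along the sagittal. Red blood cell genes were read beside the Tpsb2 difference. All 7 tested genes of that list were called higher in the horizontal than in the coronal fractions, with a median difference of 2.03 log2 against 0.02 over all tested probes, and their mean profile was also highest of the coronal series in fraction 3 and had an r of 0.57 with Tpsb2. With the slide as a random block 0 of the 7 red blood cell genes were called (median difference 1.97 log2), and without horizontal fraction 6 there were 6. In the sagittal series the red blood cell mean profile was highest in fraction 8, where Tpsb2 was low. It stood at -0.61 log2 in sagittal fraction 2, the highest for Tpsb2. In the horizontal series it was highest in fraction 1 and Tpsb2 in fraction 3. The lymphocyte list (3 tested genes) had a higher r with Tpsb2, 0.62. The part of blood in the Tpsb2 values was not tested.

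The label mast cell was checked against other mast cell genes, listed with earlier results of these data known. Of 30 genes, 29 had a named probe, 13 were well above background in every fraction and 5 (Mcpt1, Mcpt2, Mcpt8, Mrgprb2 and Cd200r3) in none. Ms4a2, the beta chain of the IgE receptor, was well above background in sagittal fraction 8 alone, at -2.01 against -5.00 in the next sagittal fraction. Fcer1a, its alpha chain, was well above background in sagittal fraction 7 alone, at -3.33. Of the others, Tpsg1, Mrgprb1 and Mrgprx1 were well above background in 1 fraction each (horizontal 6, horizontal 5 and sagittal 9) and Mcpt9 in 2 (horizontal 6 and sagittal 10). None of these 6 genes was well above background in coronal fraction 4 or horizontal fraction 2, and they are named here after their values were seen. Among genes of the list detected in more fractions, Il1rl1 was well above background in coronal fraction 4, its highest coronal level (-4.31). Hpgds and Tph1 were well above background in horizontal fraction 2, and Ctsg in neither of these fractions. Kit, the stem cell factor receptor that mast cells need, was well above background in all 28 fractions, but brain neurons also use it. It was highest in coronal fraction 2 at 3.05, and its r with Mcpt4 was -0.15.

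**Figure D5:**
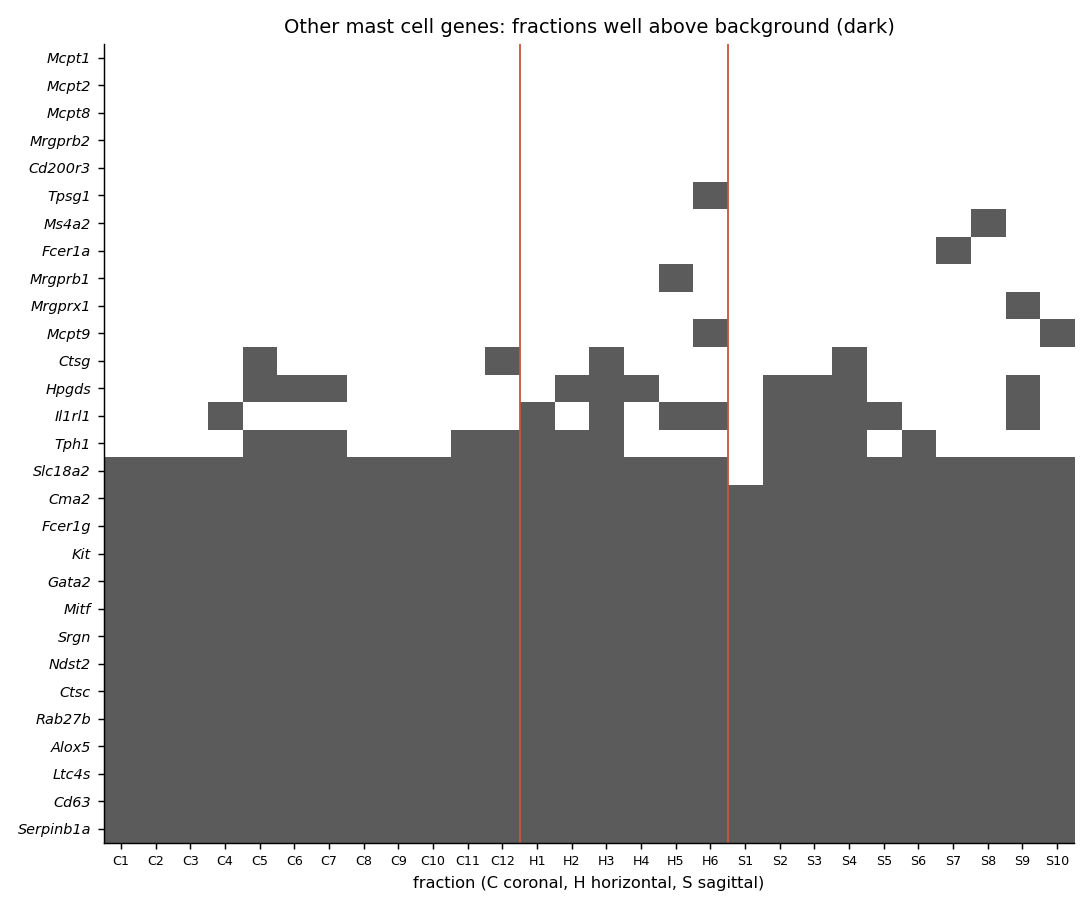
Other mast cell genes (rows) that were well above background (dark) in each of the 28 fractions (columns, C coronal, H horizontal, S sagittal). The 5 top rows are dark nowhere, Ms4a2 and Fcer1a each have 1 dark cell, and the 13 lowest rows are dark throughout.

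Among the 11 genes of that list that were not tested, 8 had their highest horizontal level in fraction 6 and 8 their highest sagittal level in fraction 9, the arrays on which faint probes were brightest. Of the 18 tested genes, limma called 2 higher and 0 lower in the horizontal than in the coronal fractions (background 1.95% higher and 1.52% lower). Ctsc, the protease that activates granule proteases, differed by 0.48 log2 (SE 0.13, adjusted p 0.0328). Il1rl1, the receptor for interleukin 33, differed by 1.76 log2 (SE 0.47, adjusted p 0.0365) but was well above background in 1 of 12 coronal and 4 of 6 horizontal fractions, so this size is not a measured one. It was brightest in horizontal fraction 6 (-1.32) and sagittal fraction 9 (-1.07). Neither call held without horizontal fraction 6 or with the slide as a random block. The median difference of the list was 0.08 log2, against 0.02 over all tested probes. For the other 2 contrasts 0 of 18 were called, with medians of -0.02 and -0.09.

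Along the coronal series 9 of the 18 had a trend (background 33.7%). Kit (fitted range 2.21 log2, adjusted p 0.00302) and Gata2 (1.11, 0.0231), the transcription factor, had their highest fitted value in fraction 1, as did Serpinb1a (1.86, 0.0115), an inhibitor of granule proteases. Mitf (2.36, 0.0154), a transcription factor of mast cells and pigment cells, and Cd63 (1.20, 0.00504), a granule membrane protein of many cells, had it in fraction 12. Rab27b (2.57, 0.00513), of granule docking, had it in fraction 7, Slc18a2 (2.87, 0.00653), the vesicle transporter for histamine and other monoamines, in fraction 4, Alox5 (1.08, 0.0394) in fraction 5 and Ltc4s (0.93, 0.0488) in fraction 10, the last 2 being enzymes of leukotriene synthesis. Along the horizontal series 4 of 18 had one (background 15.8%), namely Tph1, Serpinb1a, Il1rl1 and Alox5. Tph1, which starts serotonin synthesis in mast cells and the pineal gland, was at 1.17, -1.60 and -3.54 in fractions 1 to 3 and not well above background in fractions 4 to 6 (adjusted p 0.0169). With 1 spline degree of freedom fewer 0 of the 4 horizontal calls were left, and without horizontal fraction 6 the call of Tph1 alone. Along the sagittal series 4 of 18 had one (background 14.7%), namely Slc18a2, Mitf, Kit and Ltc4s. Slc18a2 (adjusted p 0.0121) was highest in fraction 5, followed by 1.03 in fraction 6, against -2.62 in fraction 2, and was not well above background in fraction 1. The slide and the coronal position overlap, and with the slide as an added term 0 of the 9 coronal calls were left. Without sagittal fraction 1 there were 0 sagittal calls over all probes.

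Fcer1g, the signalling chain shared by IgE and IgG receptors, Srgn, the proteoglycan of granules, Ndst2, an enzyme of heparin synthesis, and Cma2, a further chymase, had no call in these contrasts or trends. Cma2 was well above background in all 28 fractions and had its highest coronal level in fraction 4 (-0.42, against -0.78 in fraction 11) and its highest horizontal level in fraction 2 (-0.93, against -1.10 in fraction 6). The first and second fractions of Mcpt4 in these series were the same. The gaps of Cma2 were small, 0.36 and 0.17 log2 with errors of 0.21 and 0.21, and cross-hybridisation between the 2 chymases was not tested. The sagittal maximum of Cma2 was in fraction 1, where Mcpt4 was not well above background, and its r with Mcpt4 over the 28 fractions was 0.35.

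The remaining histamine pathway was read beside Hdc. Of 11 listed genes, 10 had a named probe and 9 could be tested. In the 3 plane contrasts 0 of the 9 were called by limma, and along the coronal series 7 of 9 (background 33.7%). Among the receptors Hrh3, the autoreceptor of histamine neurons, had a fitted range of 2.64 log2 (adjusted p 0.000833) and was highest in coronal fraction 9 (5.01) and horizontal fraction 4 (4.44). Hrh1 had 2.98 log2 (adjusted p 0.00197) and Hrh4, the receptor of immune cells, 1.85 (adjusted p 0.00633). Among the transporters Slc22a2 had 4.33 log2 (adjusted p 0.0016), highest in fraction 12, and Slc29a4 1.78 (adjusted p 0.00762), highest in fraction 2 (4.27). Of the enzymes that break histamine down, Aldh7a1 had 0.97 log2 (adjusted p 0.00628) and Hnmt, the main one in brain, 0.79 (adjusted p 0.0488), while Maob and Aoc1 had no call. With the slide as an added term Hrh3 alone of the 7 passed. Along the horizontal series 1 of 9 was called, Slc29a4 (1.93 log2, adjusted p 0.0208), a call lost with 1 spline degree of freedom fewer, and along the sagittal series 0. The r with Hdc over 28 fractions was 0.63 for Slc29a4, 0.51 for Aoc1 (well above background in 8 fractions) and -0.43 for Slc22a2, and -0.21 for Hrh3, which share the arrays.

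For the whole series, the 75th percentile of the signal lay between 135 and 574, the lowest in sagittal fraction 1, and 24822 to 34240 probes per array were well above background. Probes with repeated spots had a median SD of 0.055 to 0.080 log2 within an array. The lowest level well above background lay between -5.85 and -3.03, so a faint gene such as Mcpt4 could be detected more deeply in sagittal fraction 4 than in sagittal fraction 9. The number of arrays, 1 per position, limits the precision.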

How the data were processed

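Brain fractions were measured on 1-colour Agilent arrays. The deposited intensity values were, per the file headers, background-subtracted by Feature Extraction 10.5.1.1. A table of log2 values for 44721 probes was deposited by the authors too, and of these 99.5% lay within 0.001 of the levels used here plus an offset per array. Here outlier spots were left out, spots of a probe averaged, and the 75th percentile of each array subtracted from log2 signal. A probe was well above background where a share of 0.5 or more of its spots had the flag for it. The 32364 probes tested were so in at least 1 fraction of each series. Names came from a RefSeq table of GRCm38.p6 (27235 probes), and promoter sequences from RefSeq, for 4 of the 5 members.

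limma 3.58.1 (R 4.3.3) compared the planes over all 28 fractions, and tested position by a natural spline with 3 degrees of freedom, or 2 for the horizontal series. Adjusted p-values are Benjamini-Hochberg over all tested probes, with a threshold of 0.05. Fractions of 1 mouse are the units, so p-values describe these 3 brains. The fits were tested on simulated data. Genes named were the members, list genes past the threshold, up to 4 others per list by mean level, and the 5 closest profiles. Ms4a2, Fcer1a and other faint mast cell genes were named after their values were seen. Members and lists were chosen with earlier results of these data known, and closest profiles of single proteases were added after seeing the data. Alternatives were other scalings, normexp on the median signals (mean signals were not used here), no filter on dim probes, the slide, and fractions left out. The fraction number does not pair samples, since it names different places in each plane.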

Additional observations from a re-analysis of the deposited data

Results flagged for a closer look

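The Cpa3 level in horizontal fraction 2 was the highest of the horizontal series. Its gap to the nearest of the other 5, divided by the whole range, was 0.678, past Dixon's 95% value of 0.625 for 6 samples. This was asked of the horizontal and sagittal fractions of each member, 10 sets in all, for which 0.5 would be found by chance, and 1 was found. The other 5 values were not well above background, so the gap is not a measured one, and against horizontal fraction 6 no bound above 1 can be given. The coronal sets of 12 fractions were not asked, and no 95% value was set for them. The same ratio for the highest coronal fraction was 0.618 for Tpsb2 (fraction 3) and 0.572 for Cpa3 (fraction 4). It was 0.164 for Mcpt4, 0.074 for Hdc and 0.030 for Cma1. The levels were known when the members were chosen, so these ratios are a description and support nothing.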

How the results depend on the processing

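Plane differences of Tpsb2, Mcpt4 and Hdc moved by less than the spread over fractions under every alternative run. The scanner software's weaker flag, signal positive and significant, gave 12 fractions for Cpa3, 26 for Mcpt4 and 16 for Cma1, and the second probe of Tpsb2 gave 0 well above background. With normexp the highest sagittal fraction of Mcpt4 became 1, and for Cpa3 the highest coronal fraction became 11 and the highest horizontal one 6. With the array median the highest horizontal fraction of Hdc became 4. The r of Mcpt4 with Cpa3 was 0.82 with normexp and 0.61 without coronal fraction 4 and horizontal fraction 2, and that of Mcpt4 with Hdc was -0.21 with normexp.

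Counts over all probes depended strongly on the setting. For horizontal minus coronal (1122) they were 2568 with the array median, 404 with normexp, 9 with the slide as a random block, 2843 without sagittal fraction 9 and 87 without horizontal fraction 6. For sagittal minus coronal (45) they were 11 with the array median, 25 with quantile normalization, 17 without the filter on dim probes, 9 with the slide block and 23 without sagittal fraction 9. For sagittal minus horizontal (5) they were 0 with the array median, 1 without the filter, 1 with the slide block, 1319 without sagittal fraction 9 and 3 without horizontal fraction 6. With the fraction number as a replicate block the 3 contrasts gave 1381, 376 and 2. This number does not pair samples of different planes.

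Trend counts in the coronal series (10910) were 17330 without the filter and 241 with the slide as an added term. In the horizontal series (5115) they were 19258 with the array median, 9114 with normexp, 1 with 1 spline degree of freedom fewer and 1336 without fraction 6. In the sagittal series (4767) they were 343 with the array median, 2631 with quantile normalization, 14274 with normexp, 19184 without the filter, 2520 with the slide term, 0 without fraction 1 and 12543 without fraction 9. The array median brings the median over all tested probes to -0.39 log2 for horizontal minus coronal and to 0.24 for sagittal minus horizontal. The cause of the other shifts was not tested. Without sagittal fraction 1, 5955 probes had an unadjusted p under 0.05. Ctsc kept its call in 0 of 7 alternatives and Il1rl1 in 1 of 7. Of the 25 trend calls of other mast cell and histamine genes, the one kept in every alternative was the coronal trend of Hrh3. The slide term could not be fitted in the horizontal series, which lay on 1 slide.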
